A study of Mus musculus with 12 samples.

Results

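RNA of mouse livers was sequenced to ask how loss of phospholipase D1 (PLD1) in hepatocytes changes gene expression when the liver is overloaded with fat. The comparison described here sets 3 libraries from hepatocyte-specific Pld1 knockout mice (KO) on a high-fat diet (HFD) against 3 libraries from floxed control mice on the same diet, which is 6 of the 12 libraries in all. The other 6, 3 of each genotype on normal chow, share the fit that sets the gene filter and the spread. They also serve to ask whether a difference between genotypes depended on the diet. The chow controls further give the diet's own effect. Control animals carried the floxed Pld1 gene and have WT in their genotype field. The deleted group is named a knockdown in that field and a knockout in the design text, and knockout is used below. The HFD lasted 20 weeks. The Cre driver, strain, sex and age, and whether each library came from a separate animal, are missing from the labels. The p-values below therefore speak of the spread among libraries, and that spread may be technical.

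PLD1 cuts phosphatidylcholine into choline and phosphatidic acid, a lipid that is both a signal and a precursor of other glycerolipids. Hepatocytes store fat in droplets when they take up and make more fatty acid than they burn or export. The nuclear receptor PPARγ, encoded by Pparg, drives droplet and uptake genes in fatty liver, and CD36 carries long-chain fatty acids into cells. The study's title names both proteins as its subject.

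Total gene counts of the 6 HFD libraries ran from 18715497 to 22378180. Genes detected were 20252 to 20853 in the controls and 19967 to 20132 in the KO, without overlap. Control library 1, which had the lowest total of the 6, detected 20252. Levels are given as CPM, the counts scaled to a common library size with edgeR's TMM factors. On this scale all tested genes summed to at most 962477 CPM in the controls and to 1017750 to 1032850 CPM in the KO. A gene with an equal share of the counts therefore reads higher in the KO. Libraries of a group lay close together: the median coefficient of variation of genes with at least 50 CPM was 2.37% in the controls and 2.82% in the KO. Mitochondrially encoded genes took 7.36% ± 0.128 (SD, n = 3) of the counts in the controls and 6.64% ± 0.138 in the KO, and the groups did not overlap. An exact permutation test of that share gave p = 0.1 (two-sided), the smallest value that 3 against 3 libraries allow. The share is of raw counts. In CPM the 13 mitochondrial genes of the respiratory chain overlapped, with sums of 68564 to 70957 in the controls and 65056 to 68702 in the KO.

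Of 14778 genes tested, 4784 passed the threshold of a Benjamini-Hochberg adjusted p of 0.05 in edgeR's quasi-likelihood test (called genes, 32.4% of those tested). Of these, 2475 were higher in the KO (16.7%) and 2309 were lower (15.6%). Most of the differences were small. The median fold of the called genes was 1.25, and 2425 of them (50.7%) differed by less than 1.25-fold. At 1.5-fold or more there were 1063 called genes (7.19% of those tested), 441 higher and 622 lower. Between 2-fold and 4-fold lay 140 higher and 256 lower genes, and beyond 4-fold 35 higher and 59 lower. With a fixed coefficient of variation of 20% instead of the fitted spread, 534 genes were called, 204 higher and 330 lower, and the count called in the main direction moved by over 1.5 times in 60 of 67 gene lists. List counts below therefore rest on the fitted spread. The groups did not overlap in 4565 of the 4784 called genes and in 6273 of all 14778 tested genes. Genes named below for their fold were picked among those without overlap. For these genes, remarks that the groups were apart describe that choice and are not separate results.

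The direction of the differences went with expression level. Tested genes with an annotated length were ranked by their counts per kilobase of transcript over the 6 HFD libraries and split into 4 equal groups. In the lowest group, called genes of 1.5-fold or more were 122 higher and 319 lower. Fewer genes were detected in the KO libraries, as given above, and the part of this in that split was not tested. In the highest group they were 135 higher and 44 lower. Both the gains and the losses were concentrated in few genes: the 10 genes that gained most held 25.7% of the summed gain in CPM of all called higher genes, and the 10 that lost most held 28.2% of the summed loss. The 10 that gained most encoded proteins that the liver secretes, apart from Tat: Alb (4849 CPM), Apoa1 (4284), Serpina3k (2928), Hp (2669), Apoe (2287), Mup7 (2231), Mup3 (1959), Serpina1e (1739), C3 (1689) and Tat (1621). Among those that lost most, Scd1 (-1546 CPM), Elovl5 (-627) and Acaa1b (-592) desaturate, lengthen or oxidise fatty acids, and Apob (-457) packs them into lipoproteins. Others were Selenop (-867), a selenium carrier, Bhmt (-706), which remethylates homocysteine, and Car3 (-377), a carbonic anhydrase. The loss of Apob, at a log2 fold change of -0.13 ± 0.02, was 0.02 once a trend tied to transcript length and GC content was taken out.

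Transcript length moved with the fold changes. The median log2 fold change was 0.13 in the shortest group of 4 by length, 0.02 and -0.04 in the middle groups, and -0.09 in the longest. With that trend and the trend on GC content removed, 3004 genes were higher and 1701 lower, against 2475 and 2309 without the removal, and the median of all tested genes moved from -0.01 to 0.03. The fold changes below carry this trend. A list's count that moved by over 1.5 times without it is given beside the count, unless both were 2 or fewer.

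**Figure D1:**
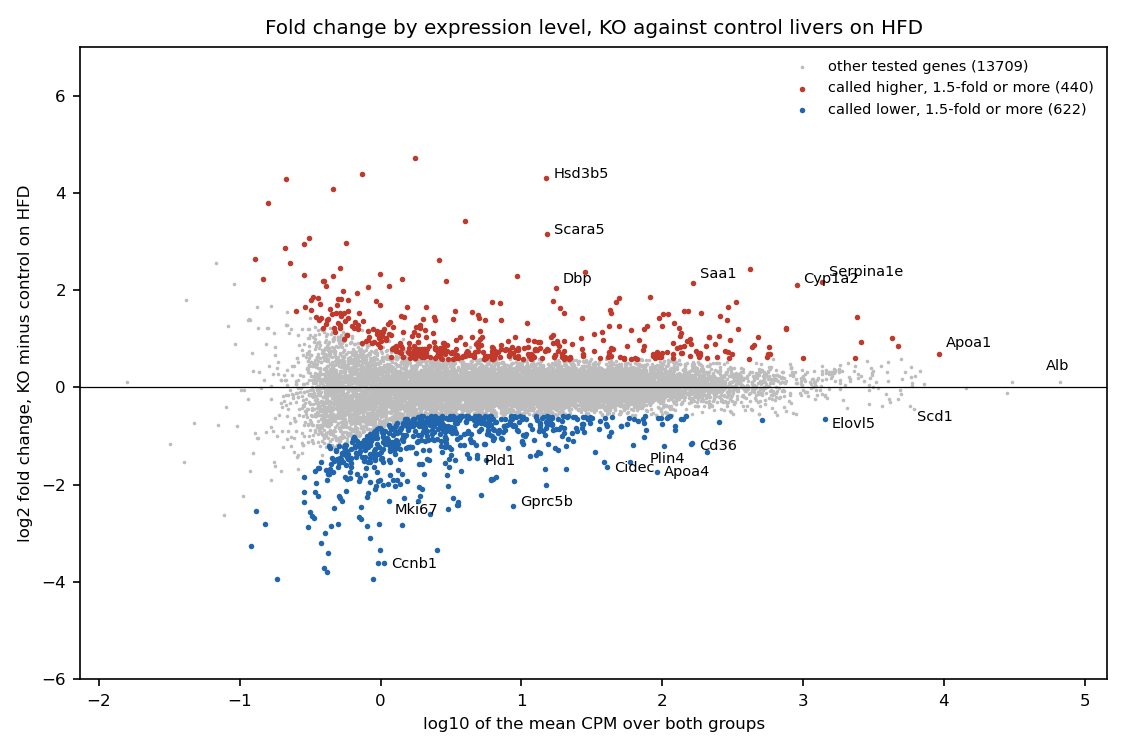
Each point is a tested gene with counts in both groups, with the log10 of its mean CPM over both HFD groups on the horizontal axis and its log2 fold change (KO minus control) on the vertical axis. Genes called at 1.5-fold or more are coloured, higher in red and lower in blue; the blue points gather at low levels (319 of 622 in the lowest of 4 level groups), while Serpina1e, Cyp1a2 and Apoa1 stand out among abundant genes on the higher side.

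The targeted gene was low in every KO library. Pld1 (ENSMUSG00000027695, chromosome 3) read 7.72, 6.48 and 7.19 CPM in the 3 control libraries and 2.91, 1.93 and 2.94 CPM in the 3 KO libraries. All KO values lay below all control values, with a log2 fold change of -1.45 ± 0.16 (SE, adjusted p = 7.54e-09), which leaves 36.4% of the control level. Whole liver also contains cells in which the gene was not deleted, and fewer cells of a type and less RNA per cell cannot be told apart in bulk RNA, here and for every gene below. No other phospholipase D family member of the list passed the test. Pld2, which makes the same product, read 10.1, 10.3 and 10.7 CPM in the controls and 10.1, 8.91 and 7.92 CPM in the KO, and the groups overlapped (adjusted p = 0.157; Pld2 was named after its values were seen).

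Pparg (ENSMUSG00000000440) read 19.6, 20.96 and 18.9 CPM in the controls and 13.8, 11.9 and 13.5 CPM in the KO. The groups did not overlap, and the log2 fold change was -0.60 ± 0.08 (adjusted p = 5.95e-07), but Pparg was not called with a coefficient of variation of 20% (adjusted p = 0.219), where Pld1 and Cd36 were. Cd36 (ENSMUSG00000002944) read 221, 219 and 236 CPM in the controls and 108, 98.4 and 100.01 CPM in the KO, 45.2% of the control mean. Again the groups were far apart, at -1.15 ± 0.04 (adjusted p = 3.47e-22). On chow Pparg differed by -0.52 (adjusted p = 1.95e-05) and the difference between diets did not pass (-0.08 ± 0.12, adjusted p = 0.660). Cd36 differed by -0.13 on chow (adjusted p = 0.0289), and its difference between diets was -1.02 ± 0.06 (adjusted p = 1.95e-15).

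**Figure D2:**
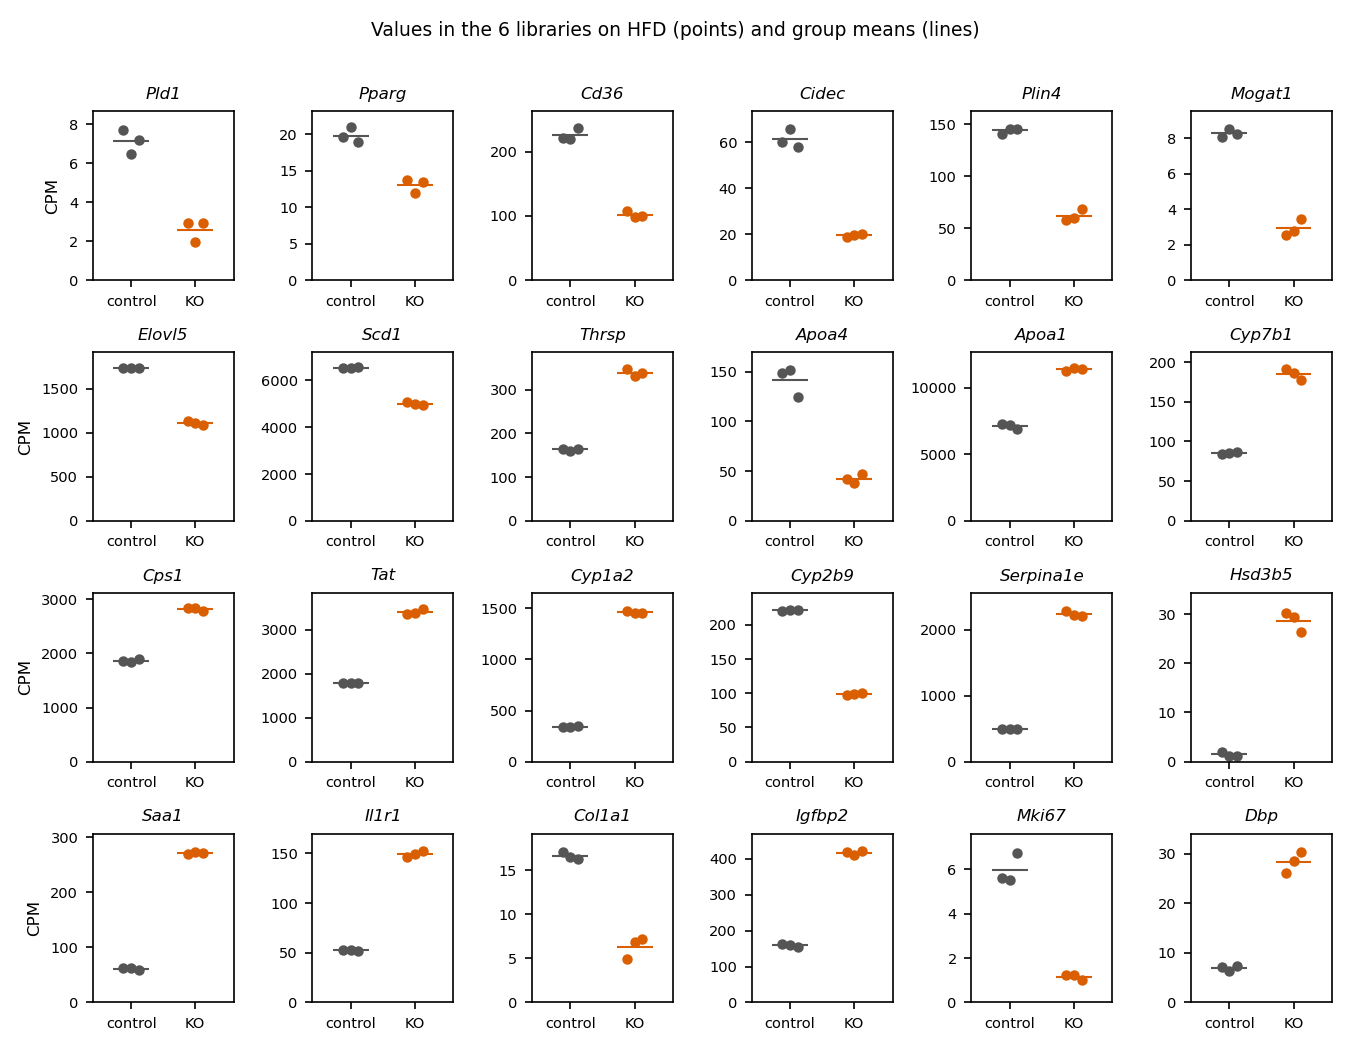
Values of 24 genes in the 6 HFD libraries, in CPM on linear axes that start at 0; points are libraries and horizontal lines are group means. In every panel the 3 KO libraries lie clear of the 3 control libraries, from Pld1 at 7.72, 6.48 and 7.19 against 2.91, 1.93 and 2.94 CPM to Dbp at 7.10, 6.30 and 7.27 against 26.1, 28.7 and 30.4 CPM.

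Genes of fatty acid uptake moved in both directions besides Cd36. Of 22 members tested, 10 were lower and 7 higher, but with the length and GC trend removed the lower ones were 6. Acss3, which activates short-chain fatty acids in mitochondria, fell from 26.5 ± 0.0633 to 13.8 ± 0.478 CPM (mean ± SD, n = 3 in each group here and below; log2 fold change -0.95 ± 0.08, adjusted p = 8.56e-12). Among the fatty acid binding proteins, Fabp2 (-0.52 ± 0.05) and Fabp4 (-0.46 ± 0.11) were lower, while the main liver form, Fabp1, rose slightly from 2792 ± 43.8 to 3177 ± 66.6 CPM and Fabp5 rose by 0.83 ± 0.13 from a low level.

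Lipid droplet genes were mostly lower in the KO. Of 23 tested, 12 were lower (52.2%) and 4 higher (2 with the length and GC trend removed), with a median log2 fold change of -0.17 against -0.01 over all tested genes. The largest falls were in proteins that coat and fuse droplets. Cidea read 14.7, 13.9 and 13.5 CPM in the controls and 3.72, 4.08 and 3.30 CPM in the KO, a log2 fold change of -1.92 ± 0.14 (adjusted p = 6.10e-13). Cidec, its relative that enlarges droplets by fusing them, read 60.1, 65.5 and 57.8 CPM in the controls and 18.9, 19.5 and 20.2 CPM in the KO (-1.65 ± 0.06, adjusted p = 2.77e-20). Plin4, a coat protein, read 141, 146 and 146 CPM against 58.0, 60.2 and 68.3 CPM (-1.21 ± 0.05, adjusted p = 2.53e-20). For all 3 genes each KO library lay far below each control library. Plin2, the most abundant coat gene of the liver, fell less, from 1013 ± 20.2 to 699 ± 13.4 CPM (-0.54 ± 0.02, adjusted p = 2.85e-19), as did Hsd17b13 (-0.46 ± 0.03), a droplet enzyme of hepatocytes, and the lipid hydrolase gene Ces1g (-0.52 ± 0.03). The coat proteins held 8 of the lower genes and the lipases and their cofactors 4. For Cidec and Plin4 the difference was not called or was opposite on chow, at 0.25 (adjusted p = 0.0760) and 0.70 (adjusted p = 3.83e-11). Their differences between diets were -1.90 ± 0.13 and -1.91 ± 0.08. Cidea was lower on chow as well, at -0.63 (adjusted p = 0.0472). The list as a whole was lower there too, against 2263 lower and 2341 higher of all 14778 tested genes. In the list 11 of 23 were lower and 4 higher, with a median of -0.25. The difference between diets was called positive in 7 of its genes and negative in 8, the 8 being coat genes.

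Enzymes that make and use phosphatidic acid did not move as a group: 9 of 32 were lower and 6 higher. Mogat1, which builds diacylglycerol from monoacylglycerol, read 8.08, 8.50 and 8.26 CPM in the controls and 2.56, 2.79 and 3.45 CPM in the KO, without overlap (-1.49 ± 0.16, adjusted p = 2.59e-09). Dgkq, a kinase that turns diacylglycerol into phosphatidic acid, fell from 23.9 ± 1.34 to 16.4 ± 1.02 CPM (-0.54 ± 0.07, adjusted p = 1.26e-07). Lpin1, a phosphatase that runs that step in reverse, rose from 313 ± 8.04 to 557 ± 5.61 CPM (0.83 ± 0.03, adjusted p = 6.46e-23), and Dgat2, the last step of triglyceride synthesis, rose from 505 ± 13.2 to 596 ± 10.98 CPM (0.24 ± 0.03). In phospholipid synthesis 5 of 28 were higher and 7 lower. The choline branch, which supplies the substrate of PLD1, had 4 of 7 genes lower, led by choline kinase Chka (-0.57 ± 0.03, adjusted p = 3.98e-15). The ethanolamine and serine branch had 3 of 7 higher and none lower, led by the ethanolamine kinase Etnk2 (0.60 ± 0.03, adjusted p = 9.85e-18) and Pcyt2 (0.23 ± 0.03). In sphingolipid metabolism 4 of 21 genes were lower (19.0%, near the share of all tested genes) and 1 higher. With the length and GC trend removed 5 were lower and 5 higher.

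Fatty acid synthesis was split between its regulators and its desaturases. In de novo lipogenesis 10 of 21 genes were higher and 6 lower. Of the regulators, 7 of 10 were higher. Thrsp, a partner of acetyl-CoA carboxylase that responds to carbohydrate and thyroid hormone, read 165, 161 and 165 CPM in the controls and 348, 331 and 339 CPM in the KO. Its KO libraries were all above its control libraries (1.05 ± 0.03, adjusted p = 1.35e-24), and its paralog Mid1ip1 was higher too (0.49 ± 0.07). Insig2, which holds back the activation of SREBP, fell (-0.55 ± 0.03, adjusted p = 3.99e-18). Of the elongases and desaturases 12 of 16 were lower (75.0%), and all 6 desaturases were. Scd1, which makes monounsaturated fatty acids and is among the most abundant transcripts, read 6548, 6512 and 6584 CPM in the controls and 5067, 5007 and 4932 CPM in the KO (-0.39 ± 0.01, adjusted p = 4.28e-23). Elovl5, which lengthens polyunsaturated fatty acids, read 1743, 1743 and 1734 CPM against 1141, 1111 and 1085 CPM (-0.64 ± 0.02, adjusted p = 6.46e-23). Both sets of KO values were below the controls by far more than the spread. Fads3 (-0.62 ± 0.06) and Scd2 (-0.90 ± 0.15) fell as well, whereas Elovl3, which is higher in males, rose from 385 ± 9.94 to 549 ± 8.06 CPM (0.51 ± 0.02, adjusted p = 6.25e-18).

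Fatty acid oxidation and ketogenesis genes were lower rather than higher. Of 44 tested, 28 were lower (63.6%) and 9 higher, with a median of -0.16. The lower genes were 10 of 13 peroxisomal, 10 of 16 mitochondrial, 3 of 3 ketogenic genes and 3 of 4 regulators. Omega oxidation differed from these in that 4 of 8 genes were higher and 2 lower. The peroxisomal thiolase Acaa1b read 2361, 2357 and 2301 CPM in the controls and 1729.9, 1732 and 1780.3 CPM in the KO (-0.42 ± 0.02, adjusted p = 1.31e-18), and Abcd2, which carries very-long-chain fatty acids into peroxisomes, fell by more (-0.76 ± 0.07). No KO library reached a control library for Acaa1b. Pdk4, which blocks glucose oxidation when fat is burnt, read 28.4, 28.9 and 29.5 CPM against 14.6, 13.5 and 13.4 CPM (-1.07 ± 0.07, adjusted p = 2.85e-14), and the fasting hormone Fgf21 fell (-0.88 ± 0.09). In the same direction the acyl-CoA thioesterase Acot2 fell by 0.96 ± 0.11, but its neighbour Acot1, whose sequence is very similar and whose reads may be shared, rose by 0.43 ± 0.06.

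Cholesterol and bile acid genes were more often higher. In cholesterol synthesis and uptake 20 of 34 were higher (58.8%) and 6 lower, mostly by small folds. Abcg5, an exporter of sterols into bile, rose from 66.9 ± 2.35 to 105 ± 2.53 CPM (0.65 ± 0.04, adjusted p = 2.52e-15). Fdps, a mid-pathway enzyme with close pseudogene copies, was lower (-0.59 ± 0.10). Of the bile acid genes 14 of 26 were higher (53.8%) and 7 lower, and enzymes of both entry routes rose. Cyp7a1, the rate-limiting enzyme of the classical route, read 76.2, 84.8 and 90.0 CPM in the controls and 162, 161 and 147 CPM in the KO (0.90 ± 0.04, adjusted p = 7.14e-18). Cyp7b1, of the alternative route, read 84.4, 86.0 and 86.3 CPM against 191, 187 and 177 CPM (1.11 ± 0.03, adjusted p = 2.81e-23), and Cyp27a1, which opens that route, rose by 0.62 ± 0.02. The KO libraries were higher than the controls in all 3 cases. Cyp2c70, which makes muricholic acids in mice, rose by 0.85 ± 0.03, and the uptake carrier Slco1a1 read 70.9, 71.7 and 73.6 CPM against 220.4, 212 and 206 CPM (1.56 ± 0.03, adjusted p = 1.43e-27). Nr0b2, the repressor that bile acids induce, rose as well (0.56 ± 0.05).

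Apolipoprotein genes rose with 1 large exception. Of 25 genes of apolipoproteins and lipoprotein assembly, 16 were higher (64.0%) and 4 lower. Apoa1, the main protein of high-density lipoprotein, read 7265, 7182 and 6908 CPM in the controls and 11279, 11504 and 11426 CPM in the KO (0.68 ± 0.01, adjusted p = 1.38e-27). Apom, another protein of that particle, rose from 66.2 ± 1.97 to 107 ± 2.46 CPM (0.70 ± 0.04), and Apoa2 by 0.22 ± 0.02. Apoa4, which increases with hepatic fat in mice, read 149, 151 and 125 CPM in the controls and 41.9, 38.6 and 47.3 CPM in the KO, far below (-1.73 ± 0.06, adjusted p = 1.14e-21). Apoe, the second most abundant transcript per length after Alb in the controls (20982 and 31886 CPM per kilobase), changed by 0.11 ± 0.02, which was 0.02 and no longer called with the length and GC trend removed.

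Carbohydrate genes split evenly. Of 37 genes of glycolysis and gluconeogenesis, 11 were higher and 13 lower. Pck1, which commits carbon to glucose, rose from 3043 ± 34.6 to 4135 ± 39.3 CPM (0.44 ± 0.02, adjusted p = 1.33e-21), and Pfkfb3, which makes the activator of glycolysis, read 17.0, 17.9 and 17.7 CPM against 36.4, 34.0 and 36.6 CPM (1.02 ± 0.07, adjusted p = 1.52e-13). In insulin and glucagon signalling 9 of 19 were higher and 2 lower. Igfbp2, a binding protein that is low in fatty and insulin-resistant liver, read 163, 160.3 and 153 CPM in the controls and 420.1, 409.9 and 422 CPM in the KO, all above the controls (1.39 ± 0.04, adjusted p = 1.98e-23). Irs2, an adaptor of the insulin receptor, read 13.6, 13.3 and 13.6 CPM against 19.4, 22.1 and 22.7 CPM (0.67 ± 0.07, adjusted p = 5.43e-09). Among secreted hormones, Enho, which encodes adropin, rose from 7.62 ± 1.10 to 25.9 ± 2.26 CPM (1.77 ± 0.09, adjusted p = 6.20e-17), while the stress hormone Gdf15 fell from 71.6 ± 3.28 to 55.8 ± 3.89 CPM (-0.36 ± 0.06). Of the 30 hepatokines and hormones tested, 14 were higher and 5 lower.

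Amino acid breakdown and the urea cycle were higher. Of 53 genes tested, 36 were higher (67.9%) and 10 lower, and 6 of 7 urea cycle genes rose with none lower. Cps1, which fixes ammonia at the start of the cycle, read 1854, 1849 and 1902 CPM in the controls and 2838, 2833 and 2788 CPM in the KO (0.59 ± 0.02, adjusted p = 2.21e-24). Tat, which starts tyrosine breakdown and is induced by glucocorticoids, read 1787, 1789.5 and 1779.5 CPM against 3368, 3384 and 3467 CPM (0.93 ± 0.02, adjusted p = 1.75e-30). For both genes the gap between groups was many times the spread within them. Nnmt, which methylates nicotinamide, rose by 0.86 ± 0.03. Bhmt was an exception and fell from 3285 ± 6.86 to 2579 ± 48.9 CPM (-0.35 ± 0.02, adjusted p = 1.30e-18).

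Nuclear genes of the respiratory chain were higher by small amounts. Of 74 subunits, 51 were higher (68.9%) and 5 lower, none reached 1.5-fold and the median was 0.17. Ndufa6, of complex I, had the largest rise, from 84.1 ± 2.64 to 118 ± 6.53 CPM (0.48 ± 0.04, adjusted p = 1.11e-11), and Ndufb7 rose by 0.43 ± 0.04. Atp5b, the most abundant member, fell by 0.10 ± 0.02. These are short transcripts, and with the length and GC trend removed 29 members were higher. The mitochondrial genome's own genes were mixed, with 5 of 13 higher and 3 lower, against 2 higher and 4 lower with that trend removed. mt-Nd5 read 7065, 6791 and 7305 CPM in the controls and 5427, 5069 and 5121 CPM in the KO (-0.44 ± 0.02, adjusted p = 1.21e-16), whereas mt-Nd1 rose by 0.17 ± 0.03. mt-Nd2 was called higher at 0.07 ± 0.02 with overlapping groups, and its sign turned to -0.005 with that trend removed. Without KO library 1, 3 members were higher. In iron and haem handling 12 of 32 were higher and 7 lower. Scara5, a receptor for ferritin, read 3.19, 2.92 and 3.06 CPM in the controls and 26.7, 28.2 and 26.6 CPM in the KO, 8.88-fold higher with no overlap (3.15 ± 0.08, adjusted p = 4.08e-25).

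Cytochrome P450 families moved in opposite directions. Of the 8 Cyp2a and Cyp2b genes and their receptor, 6 were lower and 1 higher, with a median of -0.81. On chow 7 of the 8 were lower and none higher, with a median of -0.95. The difference between diets was called in 4, all positive. Cyp2b9 read 220.1, 222 and 222 CPM in the controls and 97.3, 98.5 and 100.5 CPM in the KO (-1.16 ± 0.04, adjusted p = 2.32e-22). Cyp2a22 fell from 24.0 ± 1.24 to 5.97 ± 1.06 CPM (-2.01 ± 0.11), Cyp2b13 from 8.51 ± 1.14 to 1.85 ± 0.404 CPM (-2.20 ± 0.19) and Cyp2a4 from 9.64 ± 1.54 to 2.62 ± 0.471 CPM (-1.88 ± 0.17). Nr1i3, which encodes the receptor CAR that drives Cyp2b genes, fell by 0.45 ± 0.07. Members of these families are near copies of each other, so the split of reads between them is uncertain. In the Cyp2c, Cyp2d and Cyp2j group 16 of 23 were higher (69.6%) and 4 lower. Cyp2c54 read 70.5, 66.9 and 70.7 CPM against 178, 176 and 165 CPM (1.32 ± 0.03, adjusted p = 3.66e-25) and Cyp2c29 rose from 444 ± 12.9 to 716 ± 36.9 CPM (0.69 ± 0.03). Cyp2c40 rose by more than either, at 1.63 to 1.87 with 1 library left out at a time. Cyp3a11, the main PXR target, fell from 782 ± 22.1 to 526 ± 19.0 CPM (-0.57 ± 0.03), while Por, the reductase that feeds electrons to all of these enzymes, rose from 205 ± 9.23 to 406 ± 11.4 CPM (0.98 ± 0.03, adjusted p = 2.05e-22).

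Cyp1a2, a pericentral enzyme induced through the aryl hydrocarbon receptor, had one of the largest differences among abundant genes. It read 340.1, 337 and 345 CPM in the controls and 1470.3, 1454 and 1454 CPM in the KO, 4.28-fold higher (2.10 ± 0.02, adjusted p = 7.90e-37). On chow it differed by -0.14, and the difference between diets was 2.24 ± 0.03 (adjusted p = 4.09e-33). Rnase4, a secreted ribonuclease in the same list, rose from 463 ± 3.33 to 1060.1 ± 15.8 CPM (1.20 ± 0.02), and Cyp2e1, the most abundant pericentral P450, from 5979 ± 39.1 to 7543 ± 149 CPM (0.34 ± 0.01). The list as a whole split 8 higher and 8 lower of 22. Among its aryl hydrocarbon targets, Cyp1a2 included, 2 of 6 were higher and 1 lower. The periportal list split 12 higher and 5 lower of 20.

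Conjugation and antioxidant genes included several clear falls. Among the glutathione S-transferases 7 of 22 were lower and 5 higher. Gstm3 read 89.9, 85.1 and 90.5 CPM in the controls and 29.9, 30.7 and 30.9 CPM in the KO (-1.54 ± 0.05, adjusted p = 7.75e-22), Gstm2 fell by 0.88 ± 0.05 and Gsta1 from 5.47 ± 0.801 to 1.12 ± 0.230 CPM (-2.29 ± 0.21). Of the NRF2 targets and glutathione synthesis genes 15 of 31 were lower (48.4%) and 7 higher. Gclc, the rate-limiting enzyme of glutathione synthesis, read 633, 624 and 631 CPM against 395, 396 and 391 CPM (-0.68 ± 0.02, adjusted p = 1.06e-21), and Nqo1, a classic NRF2 target, fell from 11.2 ± 2.12 to 6.64 ± 0.737 CPM (-0.77 ± 0.12). Glucuronosyl and sulfotransferases were split, with 7 lower and 6 higher of 24: Ugt1a9 fell by 0.88 ± 0.04 and Sult2a8 rose by 0.58 ± 0.02. Without KO library 3, the lower ones numbered 4. Of the carboxylesterases and flavin oxidases 5 of 16 were higher and 7 lower, with Ces3b, an abundant esterase of the endoplasmic reticulum, rising from 140.1 ± 0.934 to 289 ± 6.67 CPM (1.04 ± 0.03). Transporters were likewise split (6 higher, 8 lower of 22).

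Genes listed for higher expression in male than in female mouse liver rose together. Of the genes listed for the opposite bias, most of those tested were lower. Pulsatile growth hormone acting through STAT5 sets this pattern in rodents. Of 29 male-biased genes, 24 were higher (82.8%), none was lower, and 15 rose by 1.5-fold or more; the median was 0.72. Hsd3b5, a steroid dehydrogenase that is close to absent from female liver, read 1.96, 1.21 and 1.25 CPM in the controls and 30.3, 29.4 and 26.4 CPM in the KO, 19.7-fold higher (4.30 ± 0.10, adjusted p = 3.99e-26). Every KO library exceeded every control library by more than 10-fold. Mup7 and Mup11, pheromone carriers of the major urinary protein family, read 1331, 1228 and 1361 against 3575, 3509.6 and 3529 CPM (1.44 ± 0.03) and 133, 130.3 and 130.0 against 703, 734 and 681 CPM (2.43 ± 0.06). The Mup genes are near copies, so their separate levels are uncertain. C8b, a complement component with male bias, rose from 78.5 ± 1.38 to 183 ± 3.84 CPM (1.22 ± 0.03, adjusted p = 2.29e-25). Of 14 female-biased genes that were tested (22 were listed), 8 were lower and 2 higher, with a median of -0.77; besides the Cyp2 genes above, Slc22a27, an organic anion carrier, fell from 18.7 ± 1.72 to 7.43 ± 0.485 CPM (-1.33 ± 0.10). Bcl6, a repressor that is higher in male liver and opposes STAT5, read 46.0, 46.4 and 45.7 CPM in the controls and 106, 112 and 115 CPM in the KO (1.27 ± 0.04, adjusted p = 7.98e-22). The growth hormone and STAT5 list itself was mixed (8 higher, 6 lower of 18, the lower ones being 3 with the length and GC trend removed): Igf1 rose by 0.23 ± 0.03 and Stat5a fell by 0.65 ± 0.06. In steroid metabolism 11 of 20 were higher and 1 lower.

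Serpina protease inhibitors were higher almost without exception, at 16 of 17 tested (94.1%). Serpina1e, a male-biased antitrypsin gene, read 489, 494 and 498 CPM in the controls and 2276, 2219 and 2203 CPM in the KO, 4.52-fold higher (2.18 ± 0.02, adjusted p = 2.74e-40). Serpina3k, a kallikrein-binding protein, read 2835, 2853 and 2844 CPM against 5871, 5789 and 5658 CPM (1.02 ± 0.02, adjusted p = 2.13e-31). The pseudogene Serpina4-ps1 rose from 9.09 ± 1.10 to 47.6 ± 1.36 CPM (2.38 ± 0.06). Serpina1b, the most abundant member, overlapped between groups (3985, 3615 and 3786 against 3819, 4487 and 4228 CPM, 0.14 ± 0.04); its call was lost without control library 2 (0.11) or KO library 2 (0.08). The Serpina1 and Serpina3 genes lie in clusters of near copies, so reads may have been counted in a neighbour.

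Secreted acute phase proteins, which the liver releases when interleukin-1 and interleukin-6 reach it, were higher at 23 of 25 tested (92.0%), 10 of them by 1.5-fold or more. Saa1, a serum amyloid, read 62.5, 62.0 and 59.6 CPM in the controls and 271, 273 and 272 CPM in the KO (2.15 ± 0.03, adjusted p = 2.61e-34). Its neighbour Saa2, whose reads may be shared, read 35.4, 36.2 and 35.8 CPM against 126, 132 and 129 CPM (1.85 ± 0.03). Lcn2, an iron-chelating antibacterial protein that neutrophils make too, read 20.02, 22.3 and 21.7 CPM against 69.4, 72.0 and 75.3 CPM (1.76 ± 0.05, adjusted p = 5.61e-25), and all KO libraries stood at more than 3 times the control level for these 3 genes. Orm2 rose by 1.84 ± 0.04, and Hp, which binds free haemoglobin, by 0.84 ± 0.01 from 3367 ± 65.1 CPM. The fibrinogen chains Fga (0.32 ± 0.01) and Fgb (0.40 ± 0.01) rose less. The 1 lower member was Hamp (-0.28 ± 0.04, named after its value was seen), which encodes hepcidin.

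Receptors and regulators of this response were mixed, with 11 of 27 higher and 4 lower. Il1r1, the receptor for interleukin-1, read 53.1, 52.5 and 51.5 CPM in the controls and 147, 149.9 and 152 CPM in the KO, without overlap (1.52 ± 0.04, adjusted p = 1.10e-25). Lifr, a receptor of the interleukin-6 family, rose from 96.9 ± 3.80 to 172 ± 3.68 CPM (0.82 ± 0.03), and the acute phase transcription factors Cebpb (0.96 ± 0.16) and Cebpd (0.96 ± 0.11) rose too. None of the 3 cytokine genes that could be tested was called. Complement genes were higher at 18 of 29 (62.1%) with none lower, including C3, the central component, which went from 4974 ± 60.4 to 6663 ± 82.8 CPM (0.42 ± 0.01, adjusted p = 8.73e-23), C6 (1.002 ± 0.03) and Vtn (0.54 ± 0.02). Coagulation genes were higher at 18 of 29 and lower at 3: the clotting factor F7 rose by 0.59 ± 0.04, whereas the endothelial gene Vwf fell by 1.12 ± 0.11.

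Markers of immune cells stood beside these differences, and their part in them was not tested. Kupffer cell markers were higher at 9 of 11, and their summed level was 185 to 189.9 CPM in the controls and 268 to 274 CPM in the KO. Clec4f, a receptor that marks these macrophages in mice, rose from 45.7 ± 1.64 to 64.8 ± 2.45 CPM (0.50 ± 0.04), and Marco, a scavenger receptor, from 3.99 ± 0.475 to 10.4 ± 1.02 CPM (1.38 ± 0.12). The haemoglobin receptor Cd163 rose by 0.93 ± 0.10. Of the markers of recruited and lipid-associated macrophages, 3 of 10 were lower and none higher, with a sum of 68.9 to 71.0 CPM in the controls and 48.8 to 53.9 CPM in the KO; Spp1, which bile duct cells make too, was the most abundant of them and fell from 36.5 ± 1.58 to 23.3 ± 1.05 CPM (-0.65 ± 0.06). Neutrophil markers were higher at 7 of 9, with sums of 21.1 to 23.2 CPM against 75.1 to 81.3 CPM. Nearly all of that sum was Lcn2, and the granule gene Mpo, named after its counts were seen, had 0 counts in the 3 control libraries and 30 in the 3 KO libraries (at least 11.1-fold higher, counting the control group as 3 counts in sum). Markers of B and plasma cells were higher at 5 of 9, with sums of 12.9 to 14.98 CPM against 35.7 to 38.0 CPM; Ighg2b, an antibody heavy chain, read 0.618, 0.270 and 1.12 CPM against 7.18, 6.82 and 7.92 CPM (3.42 ± 0.23).

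Erythroid markers were higher at 5 of 6, with globin gene Hbb-bs going from 14.5 ± 1.002 to 39.1 ± 3.05 CPM (1.43 ± 0.07). The haem synthesis gene Alas2 fell by 0.21 ± 0.04. Of the remaining cell lists on HFD, stellate cells had 2 of 10 markers lower (20.0%, against 15.6% of all tested genes) and none higher. The lower ones were 1 without control library 1 or KO library 2. Stellate markers summed to 389 to 394 CPM in the controls and 371 to 379.6 CPM in the KO. Sinusoidal endothelium had 5 of 10 higher, or 3 without control library 2 or KO library 1, and 2 lower (summed 272 to 276 CPM against 277 to 288 CPM). Bile duct markers had 3 of 7 lower, platelet markers 0 of 3 called either way, T and NK markers 1 of 2 higher (0 without control library 3), adipocyte markers 1 of 2 lower (2 without control library 2) and muscle markers 0 of 1 called. No pancreas marker passed the count filter and 5 of 6 were at 0 in all 6 libraries. The livers carried hepatocyte markers at 89148 to 89471 CPM in the controls and 98499 to 103297 CPM in the KO, with 8 of 9 higher and Apob the 1 lower.

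Among immune signalling genes, those of class I antigen presentation were most often higher. Of 23 chemokine genes 2 were higher and 3 lower (1 without KO library 3), and with the length and GC trend removed 4 were higher. Cxcl9, which draws T cells, fell from 8.27 ± 0.733 to 5.02 ± 0.390 CPM (-0.72 ± 0.13) and Ccl6 rose from 3.41 ± 0.771 to 6.35 ± 0.424 CPM (0.90 ± 0.16). In the interferon list 11 of 47 were higher (23.4%, against 16.7% of all tested genes) and 3 lower (1 with the trend removed); Irf7, its amplifying factor, rose by 0.49 ± 0.07. In antigen presentation 11 of 22 were higher, 10 of them of class I, led by the immunoproteasome subunit Psmb8 (0.67 ± 0.12), and 1 was lower.

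Fibrillar collagens and some matrix genes were lower. Of 22 collagens, 10 were lower (45.5%) and 1 higher, with a median of -0.34. Fibrillar collagens held 5 of the lower ones among 7, and basement membrane collagens 2 among 7. The summed level of all collagens overlapped between groups, at 1577 to 1626 CPM in the controls and 1506 to 1618 CPM in the KO. Col1a1, the main chain of scar collagen, read 17.1, 16.6 and 16.3 CPM in the controls and 4.92, 6.82 and 7.16 CPM in the KO (-1.40 ± 0.11, adjusted p = 5.05e-12). Col1a2 fell from 18.5 ± 0.720 to 9.93 ± 1.01 CPM (-0.90 ± 0.10) and Col3a1 from 32.4 ± 1.23 to 17.4 ± 0.202 CPM (-0.90 ± 0.06). No KO library reached any control library for Col1a1, Col1a2 and Col3a1, but such separation was a condition for naming them. Of 37 genes of matrix remodelling and stellate cell activation, 15 were lower and 2 higher, including the matrix protein Postn (-0.87 ± 0.13) and the growth factor Pdgfa (-0.87 ± 0.15). The other 20 were not called, and the list's summed level was 2293 to 2369.7 CPM in the controls and 2403 to 2513 CPM in the KO, higher and without overlap. The stellate cell marker Lrat, which stores vitamin A, fell by 0.50 ± 0.09, and its other markers were mostly not called, as given above. The falls in Col1a1, Col1a2 and Col3a1 were opposite to chow, where these genes were higher in the KO by 1.04, 0.95 and 0.63.

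Cell division genes were lower. Of 45 tested, 28 were lower (62.2%), 24 of them by 1.5-fold or more, and the median was -0.83. Among genes of mitosis 19 of 22 were lower and none was higher. These are rare transcripts in liver, and at a mean of at least 5 CPM 8 of the list were lower. Mki67, the proliferation antigen, read 5.61, 5.53 and 6.76 CPM in the controls and 1.26, 1.24 and 1.02 CPM in the KO (-2.35 ± 0.20, adjusted p = 2.15e-11). Ccnd1, the cyclin of G1, read 17.0, 17.7 and 16.4 CPM against 9.85, 9.83 and 11.1 CPM (-0.73 ± 0.10, adjusted p = 1.92e-07), and Mcm2, of the replication helicase, fell by 1.04 ± 0.14. For each of them the groups were apart. Tk1, a thymidine kinase of S phase, was the 1 higher member, from 11.3 ± 1.13 to 19.4 ± 0.450 CPM (0.78 ± 0.08). Of 28 p53 targets and DNA damage genes 11 were lower and 2 higher (4 with the length and GC trend removed); Gadd45g, a stress gene, rose from 32.9 ± 0.440 to 56.6 ± 2.29 CPM (0.78 ± 0.04).

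Stress and degradation pathways showed small, divided differences. Of 25 genes of the unfolded protein response 11 were higher and 6 lower (2 with the length and GC trend removed), with Herpud1 rising by 0.41 ± 0.02 and the sensor Eif2ak3 falling by 0.59 ± 0.07. In the integrated stress response 5 of 26 were higher (19.2%) and 6 lower (23.1%), against 16.7% and 15.6% of all tested genes. Ddit3, its death-linked factor, fell from 14.3 ± 0.651 to 9.71 ± 0.221 CPM (-0.56 ± 0.09). Proteasome subunits were higher at 17 of 31, led by Psmb3 at 0.32 ± 0.04, and lower at 2 (4 with the length and GC trend removed). Autophagy and lysosome genes were lower at 13 of 42 and higher at 8, the lower ones being 8 without control library 3. With the length and GC trend removed 13 were higher and 10 lower. Lipa, the lysosomal lipase that frees fatty acids from stored lipid, fell from 269 ± 3.72 to 195 ± 4.77 CPM (-0.47 ± 0.03, adjusted p = 5.77e-15).

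Ribosomal protein genes were higher as a set, each by a small amount. Of 77 cytosolic ribosomal protein genes 74 were higher (96.1%) and none was lower, with a median of 0.42 and 3 at 1.5-fold or more. Their summed level was 7403 to 7484 CPM in the controls and 9803 to 10052 CPM in the KO. Rps3a1 had the largest rise, from 86.8, 82.1 and 91.5 CPM to 184, 184 and 176 CPM (1.06 ± 0.04, adjusted p = 6.35e-21), and Rpl3 read 105, 105 and 107 CPM against 175, 175 and 163 CPM (0.70 ± 0.03, adjusted p = 7.58e-18). Many of these genes have processed pseudogenes, and reads shared with them may have been counted in either. With the length and GC trend removed 74 were higher and the median was 0.33; with a coefficient of variation of 20% 1 was called. Translation and ribosome biogenesis factors were higher at 20 of 36 (32 with the trend removed), led by Eef1d (0.47 ± 0.04), and mitochondrial ribosomal proteins at 30 of 49.

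**Figure D3:**
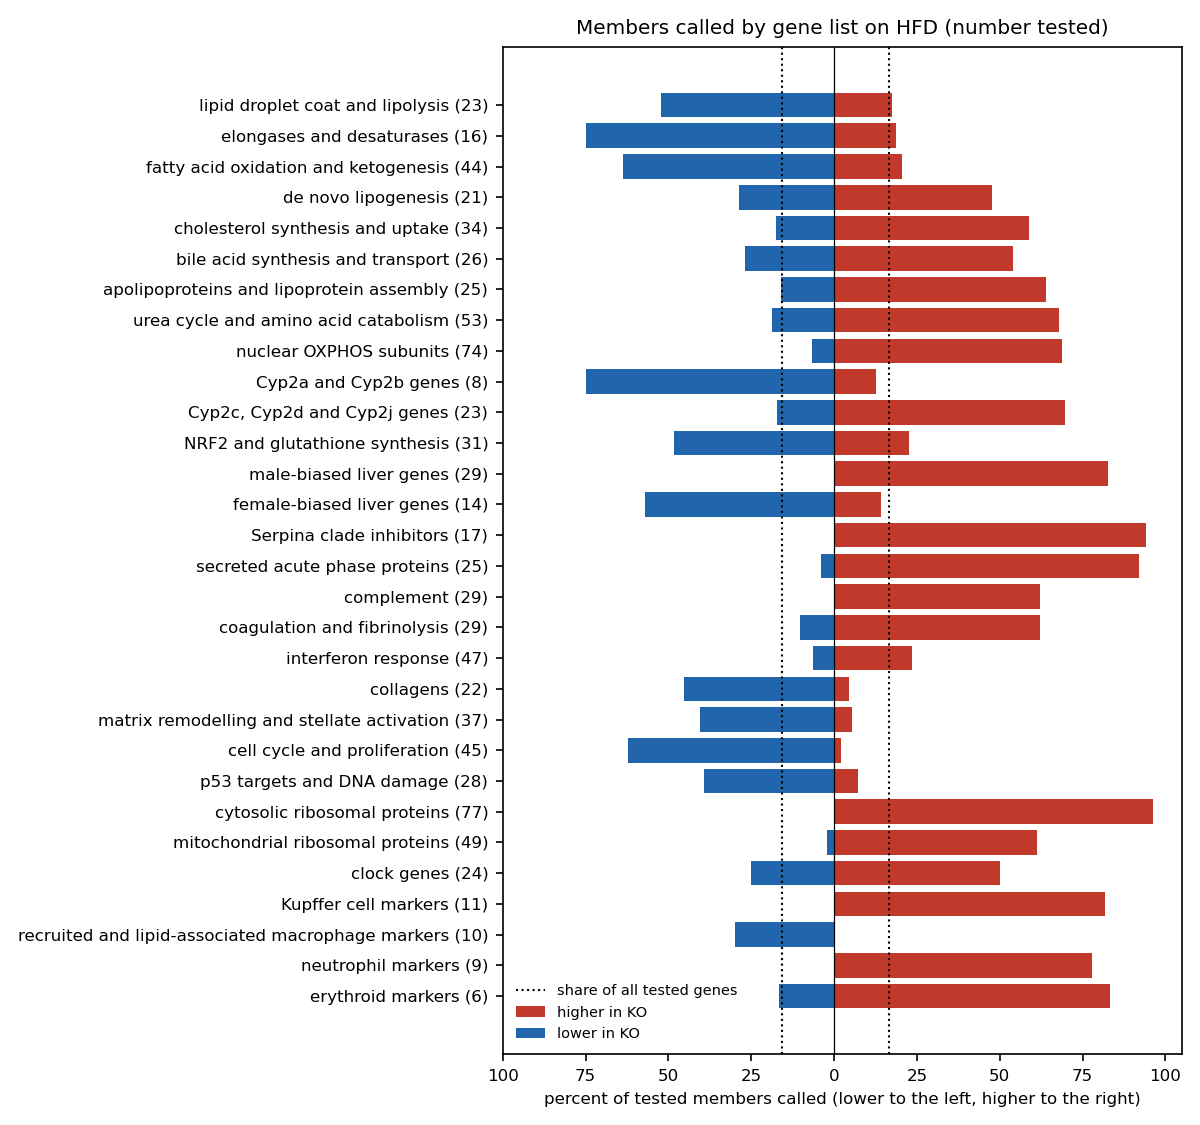
Share of the tested members of 30 gene lists that were called in the KO against control comparison on HFD, lower to the left in blue and higher to the right in red, in percent; numbers tested stand in brackets and dotted lines mark the share of all tested genes called in each direction (15.6% lower, 16.7% higher). Ribosomal proteins (96.1% higher), Serpina inhibitors and acute phase proteins lie far to the right, and elongases and desaturases (75.0% lower) and Cyp2a and Cyp2b genes far to the left.

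Clock genes differed in opposite directions by their place in the loop. The clock runs on the activators BMAL1 (encoded by Arntl) and CLOCK, which bind the E-box CACGTG and drive their own repressors, while PAR-domain factors such as DBP act at the D-box TTATGTAA. Of 24 clock genes 12 were higher and 6 lower; 4 of 5 activators were lower and 7 of 10 repressors higher. Dbp read 7.10, 6.30 and 7.27 CPM in the controls and 26.1, 28.7 and 30.4 CPM in the KO (2.04 ± 0.10, adjusted p = 1.20e-17). Ciart, a repressor of the activators, read 2.52, 3.55 and 3.40 CPM against 14.5, 15.8 and 16.4 CPM (2.29 ± 0.13, adjusted p = 9.28e-16), and Per3 read 5.71, 7.15 and 6.07 CPM against 15.4, 16.7 and 15.2 CPM (1.31 ± 0.11, adjusted p = 1.48e-11). All 3 stood clear of the controls in every KO library, as did Usp2, a deubiquitinase under clock control (1.64 ± 0.09). Arntl, named after its values were seen, read 17.7, 21.5 and 16.7 CPM in the controls and 12.1, 13.4 and 13.6 CPM in the KO (-0.52 ± 0.08). The pattern was present on chow too, where 11 clock genes were higher in the KO and 3 lower. There 3 of 5 activators were lower and 6 of 10 repressors higher, and Ciart and Dbp differed by 3.61 and 2.51. The difference between diets was called positive in 5 clock genes and negative in 5. The labels do not state the hour at which livers were taken, and its part in these differences was not tested.

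Promoters of clock genes called higher, from 250 bases before to 50 bases after the start (RefSeq, GRCm38.p6), are shown because they hold the binding letters of these factors in some cases and not in others. A gene was counted if any of its promoters held the letters. CACGTG was found for 5 of 20 clock genes with a listed promoter (25%), and for 2187 of 27025 genes in all (8.09%). It was found for 3 of 11 clock genes called higher (27.3%) and 1 of 5 called lower (20.0%). TTATGTAA was found for 1 of the 20 clock genes (5.0%) and for 299 of all genes (1.11%). The Ciart promoter (chr3:95882179-95882478, minus strand) holds CACGTG 3 times and the Per3 promoter (chr4:151044616-151044915, minus strand) holds TTATGTAA 2 times, in capitals below. Both strands were searched, CACGTG reads the same on each, and no match overlapped another. These are matches of letters, not bound sites, and the windows of Dbp and Usp2 hold neither.
Ciart: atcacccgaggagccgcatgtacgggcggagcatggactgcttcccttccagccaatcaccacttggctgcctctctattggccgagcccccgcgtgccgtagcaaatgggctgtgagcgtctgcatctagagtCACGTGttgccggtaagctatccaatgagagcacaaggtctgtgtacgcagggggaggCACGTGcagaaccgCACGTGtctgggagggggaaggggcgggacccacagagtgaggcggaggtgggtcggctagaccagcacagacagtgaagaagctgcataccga
Per3: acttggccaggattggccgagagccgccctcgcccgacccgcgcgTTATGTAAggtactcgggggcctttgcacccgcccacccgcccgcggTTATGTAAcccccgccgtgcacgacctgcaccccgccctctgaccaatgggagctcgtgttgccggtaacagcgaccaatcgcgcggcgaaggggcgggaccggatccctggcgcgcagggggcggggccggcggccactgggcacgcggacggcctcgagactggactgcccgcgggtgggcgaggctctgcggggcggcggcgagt

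Immediate early genes, which respond within minutes, and transcription factors were divided. Of 24 immediate early genes 8 were higher and 3 lower: Egr1 read 21.2, 22.8 and 23.2 CPM in the controls and 60.6, 65.5 and 66.7 CPM in the KO (1.52 ± 0.06, adjusted p = 3.95e-21), and Klf6, which stellate cells use too, fell from 25.9 ± 2.58 to 12.9 ± 1.33 CPM (-1.01 ± 0.09). Among hepatocyte transcription factors 10 of 29 were higher and 7 lower. Hnf4a, a master factor of hepatocytes, rose from 669 ± 17.2 to 762 ± 15.6 CPM (0.19 ± 0.02, adjusted p = 1.06e-07).

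Several of the largest falls were in genes outside these lists. Gprc5b, an orphan receptor linked to adipose inflammation, read 13.5, 15.9 and 15.1 CPM in the controls and 2.16, 2.79 and 3.25 CPM in the KO (-2.44 ± 0.15, adjusted p = 7.91e-15). Hr, a nuclear receptor corepressor, fell from 5.12 ± 0.512 to 0.888 ± 0.422 CPM (-2.51 ± 0.23), and Ly6d, a surface antigen, from 5.96 ± 0.975 to 1.12 ± 0.101 CPM (-2.41 ± 0.22). The groups were apart for all 3. Raet1e, a stress ligand of the receptor NKG2D, fell from 9.96 ± 0.156 to 2.70 ± 0.171 CPM (-1.88 ± 0.12), Themis, known from T cell selection, from 9.56 ± 0.788 to 2.55 ± 0.216 CPM (-1.91 ± 0.15) and the pseudogene Mrgprb11-ps from 5.90 ± 0.306 to 1.10 ± 0.591 CPM (-2.42 ± 0.26).

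Many of the differences on HFD were not the same on chow. Between genotypes on chow 31.2% of tested genes were called, and the diet by genotype interaction was called in 29.8%. Of the 1063 genes called at 1.5-fold or more on HFD, 295 were called in the same direction on chow and 155 in the opposite direction. The other 613 were not called there, and the interaction was called in 625 of the 1063. These genes were picked by their HFD difference, which is part of the interaction. That alone makes an interaction call, and a smaller difference on chow, more likely. Several lists stood higher on HFD than on chow. Male-biased genes had a median of 0.72 on HFD and -0.14 on chow, with the interaction called in favour of HFD in 22 of 29. OXPHOS subunits went from -0.16 on chow, where 49 were lower and none was higher, to 0.17 on HFD, and the interaction was positive in 65 of 74. The urea cycle and amino acid list went from -0.19 to 0.17 (42 of 53 positive), the Cyp2c, Cyp2d and Cyp2j list from -0.35 to 0.29 (16 of 23) and bile acid genes from -0.22 to 0.12 (19 of 26). Steroid metabolism genes went from -0.28 to 0.19 (14 of 20), glutathione S-transferases from -0.41 to 0.05 (15 of 22), and carboxylesterases and flavin oxidases from -0.47 to -0.12 (12 of 16). Cytosolic ribosomal proteins went from 0.10 to 0.42 (73 of 77) and erythroid markers from 0.88 to 1.54 (5 of 6). The interaction shared in the length trend: with that trend removed it was positive in 3274 and negative in 1445 genes, against 2241 and 2170.

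Other lists stood higher on chow than on HFD. Acute phase proteins were higher in the KO on both diets, at a median of 1.11 on chow and 0.49 on HFD, and the interaction was negative in 21 of 25. Collagens turned from 0.44 to -0.34 (13 of 22 negative) and matrix genes from 0.33 to -0.37 (23 of 37). Cell cycle genes went from 0.007 to -0.83 (21 of 45). Kupffer markers were higher on both diets, by 1.29 and 0.50, while chemokine genes went from 1.19 to -0.01 and recruited macrophage markers from 1.54 to -0.37. The medians of fatty acid oxidation genes were alike, at -0.16 and -0.16, although the interaction was still called in 18 genes upward and 10 downward of 44.

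**Figure D4:**
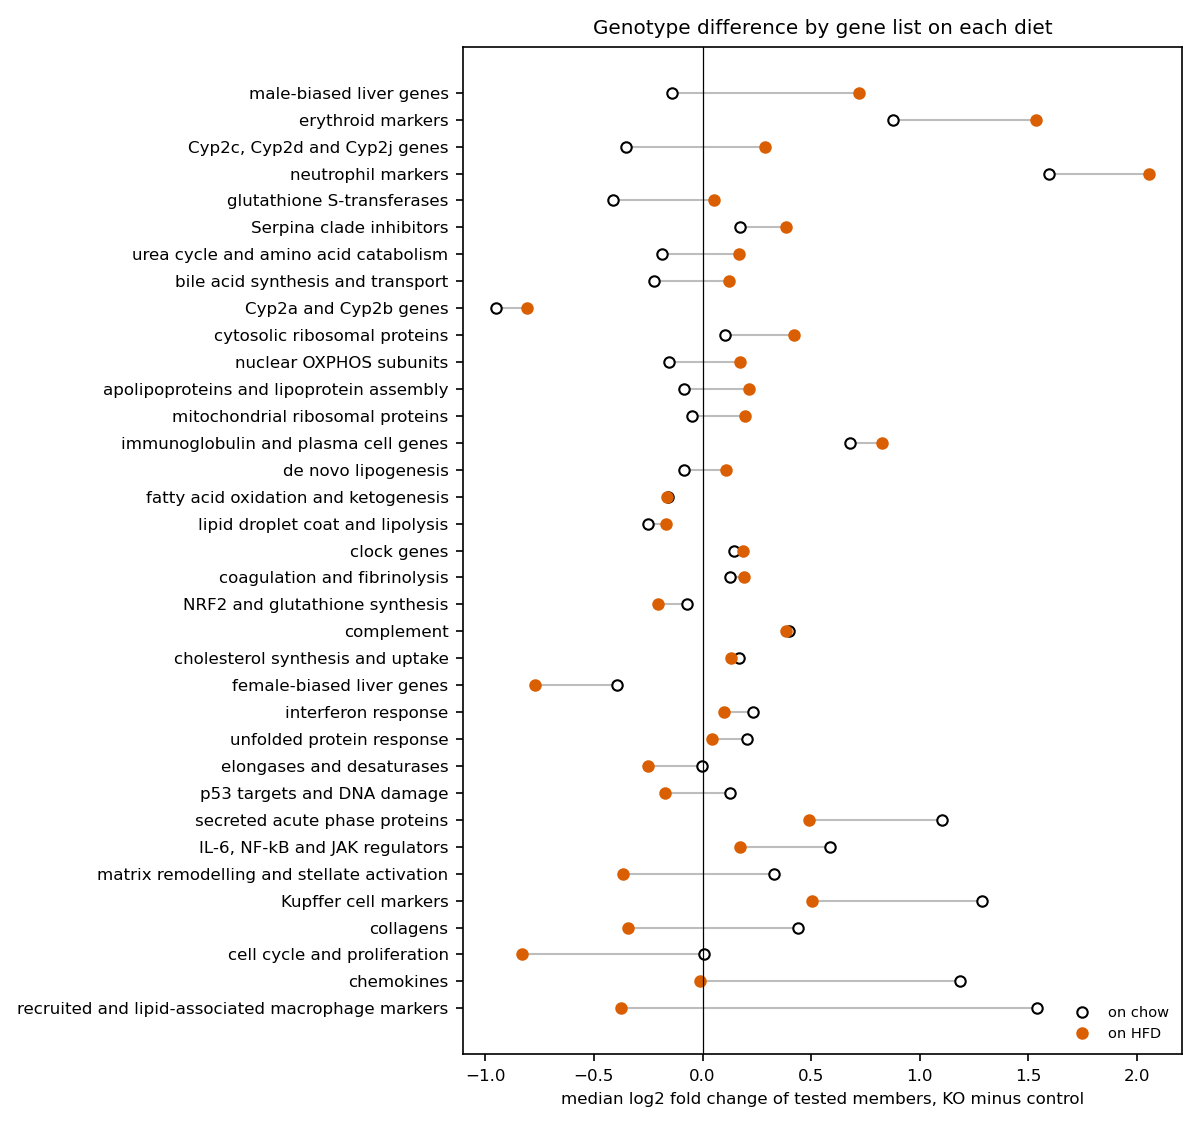
Median log2 fold change (KO minus control) of the tested members of 35 gene lists on chow (open circles) and on HFD (filled circles), in the order of the lists' median interaction. Male-biased genes sit at -0.14 on chow and 0.72 on HFD, whereas recruited macrophage markers, chemokines, cell cycle genes and collagens lie further left on HFD than on chow.

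The diet's own effect in control livers gives the scale of these values. Between HFD and chow in the controls 37.7% of tested genes were called, 2773 higher on HFD and 2798 lower. This comparison shares the 3 control HFD libraries with the comparison of genotypes, which alone makes values of opposite sign more likely, so the values are given side by side only. Cd36 differed by 2.06 with diet and -1.15 with genotype, Cidec by 3.33 and -1.65, Plin4 by 2.74 and -1.21, and Apoa4 by 3.25 and -1.73. On the other side, Hsd3b5 differed by -6.48 with diet and 4.30 with genotype, Mup7 by -1.80 and 1.44, Cyp7b1 by -1.37 and 1.11, and Igfbp2 by -1.61 and 1.39. Cyp1a2 differed by -1.69 and 2.10. Male-biased genes were lower on HFD in 27 of 29 and higher in none, ribosomal proteins in 75 of 77, while fatty acid oxidation genes were higher on HFD in 36 of 44 and collagens in 12 of 22.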

How the data were processed

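Liver RNA of 12 mouse libraries was sequenced on an Illumina instrument. The authors deposited 1 table of read counts per gene with Ensembl IDs (53465 genes, whole numbers, not normalized); Bowtie 0.12.2 and mm8 are named in the submitters' processing notes, while the counting tool, strand setting and handling of multiply matching reads are not given here by label or header. Counts were tested with edgeR 4.0.16 (R 4.3.3): filterByExpr, TMM scaling and a quasi-likelihood fit of 4 groups over all 12 libraries, with Benjamini-Hochberg adjustment over the 14778 genes kept; limma 3.58.1 and DESeq2 1.42.0 were alternatives. SE is the absolute log2 fold change divided by the square root of F. On simulated counts the fit was tested first. Transcript length and GC content come from the longest GENCODE M21 transcript, and promoters from RefSeq; no coordinate of mm8 was used.

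The comparison and the gene lists were chosen with earlier results of these data known. Genes were named by rule, starting with Pld1, Pparg and Cd36. To these were added the 12 largest called folds in each direction and the 10 largest gains and losses in CPM. Each list gave up to 4 called members of largest fold and its most abundant one. The 10 highest levels per kilobase were named too. Folds, over all genes and within lists, were ranked only among genes whose groups did not overlap and whose larger group mean reached 5 CPM. Members with larger folds that missed these limits were passed over. Separation of the groups was therefore a condition for naming genes by fold. Some genes that meet this rule are not reported here. Libraries of a group differed by more than counting noise, so each counted as 1 sample. Near-identical genes and overlapping genes may share reads.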

Additional observations from a re-analysis of the deposited data

Results flagged for a closer look

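Among Pld1, Pparg, Cd36 and the genes named for the largest folds or CPM changes, those below are listed because their difference between KO and control on HFD differed from that on chow by over 1 on the log2 scale, tested as the diet by genotype interaction in edgeR with Benjamini-Hochberg adjustment. Values are the interaction on the log2 scale, positive where the KO stood higher relative to control on HFD than on chow. No explanation was weighed. Apart from Pld1, Pparg and Cd36, these genes were picked by their HFD difference. That difference is part of the interaction, which makes a large value more likely. Hsd3b5 had 4.81 ± 0.11 and Serpina4-ps1 3.63 ± 0.07. Cyp1a2 had 2.24 ± 0.03, Serpina1e 1.5002, Scara5 1.36, Mup7 1.34, Mup11 1.29, Ighg2b 1.25 and Serpina3k 1.01. On the negative side were Ly6d at -3.64 ± 0.34, Mki67 at -2.75 ± 0.28, Gprc5b at -2.65 ± 0.34, Mrgprb11-ps at -2.04 and Hr at -1.73. Smaller negative values belonged to Themis (-1.40), Raet1e (-1.32), Ciart (-1.32), Cidea (-1.30), Gsta1 (-1.29), Saa2 (-1.12) and Cd36 (-1.02).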

How the results depend on the processing

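With a fixed coefficient of variation of 20%, 534 genes were called on HFD (204 higher, 330 lower; 534 also at 1.5-fold or more), 931 on chow (662 higher, 269 lower), 510 for the interaction (152 positive, 358 negative) and 1194 for diet in controls, 179 of 293 named genes, Pparg among them, lost their call, and the count of called members moved by over 1.5 times in 60 of 67 gene lists. At a mean of at least 5 CPM, 477 genes were called at 1.5-fold or more. With the length and GC trend removed the split on chow was 1914 higher and 3147 lower, Apob turned to 0.0231 and mt-Nd2 to -0.00501, and 12 other named genes lost their call. The cause was not tested. Leaving out 1 library at a time gave 4139 to 4305 called genes on HFD, 994 to 1042 at 1.5-fold, 3977 to 4115 on chow, 3934 to 4184 for the interaction and 4907 to 5045 for diet, and a mitochondrial share difference of -0.779 to -0.643 points. Of the named genes, 2 to 5 lost their call each time, among them Vldlr, Hsp90ab1, Pdgfrb, Scp2, Pla2g12a, Ugt2b36 and Cd63.

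Same-numbered libraries of KO and control did not deviate together (correlations of deviations -0.038, -0.044 and -0.112) and share only a number: with it as a replicate block 4741 genes were called on HFD (2449 higher, 2292 lower), 4544 on chow and 4331 for the interaction, and all 293 named genes stayed on their side of the threshold. The other settings (no count filter, DESeq2 size factors, upper quartile scaling, the DESeq2 Wald test, limma-voom, the compared groups alone) kept these counts within 1.5 times. Genes below the count filter could not be tested at this depth.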
